A study of Mus musculus with 5 samples.

Results

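Among bone marrow (BM) cells that were sorted as CD11b+Ly6Chi monocytes, a small set carried large amounts of specific granule transcripts. A cell was counted in this set, called specific granule-rich below, when Ngp, Camp and Ltf together made up at least 1% of its unique molecular identifiers (UMIs, each a counted RNA molecule) and Mpo, Elane, Prtn3 and Ctsg together less than 1%. Barcodes with fewer than 200 genes or with 20% or more of their UMIs from mitochondrial genes had been left out first. The rule found 74 cells among 4455 kept sorted cells, 21 in the naive sorted library and 53 in the CTX sorted library, and the 5 libraries of the series held 25975 kept cells. The cells were chosen on measured values, so their Ngp, Camp and Ltf levels are descriptions and support nothing. The question was whether they are neutrophils or monocytes that carry neutrophil genes.

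Neutrophils fill their granules in sequence. Azurophil granules with Mpo, Elane, Prtn3 and Ctsg products come first, specific granules with lactoferrin (Ltf), cathelicidin (Camp) and neutrophilic granule protein (Ngp) follow at the myelocyte stage, and gelatinase granules with Mmp9 come later. Monocytes depend on the receptor for colony stimulating factor 1 (Csf1r) and leave the BM through Ccr2. CD11b (Itgam) is carried by both lineages, and Ly6C, encoded by Ly6c1 and Ly6c2, is high on monocytes and lower on neutrophils, which carry Ly6G (Ly6g).

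The mice were BALB/c animals aged 4 to 8 weeks, and no genetic change is named for any group. The naive sorted library came from untreated mice and the CTX sorted library from mice given 150 mg/kg cyclophosphamide (CTX), an alkylating drug, with a stated sort purity above 98% for both. Whole BM libraries of naive mice and of mice 2 and 7 days after CTX (D2 CTX and D7 CTX), each pooled from 3 mice, served for comparison. The labels give no day for the CTX sorted library, which the study's text places at day 7, and the number of mice behind each sorted library is not given in the sources used here. There was 1 library per group, so no test between groups was possible, and all intervals are exact 95% intervals that cover counting error only. The naive sorted library held 2223 barcodes and 22694817 UMIs, and the CTX sorted library 2978 barcodes and 29139672 UMIs. No barcode of a specific granule-rich cell occurred in another library.

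The 3 genes of the rule lie within one stretch of mouse chromosome 9 (GRCm38, GENCODE M21), with Camp at 109847379 to 109849617 on the minus strand, Ngp at 110419747 to 110423012 and Ltf at 111019271 to 111042767, both on the plus strand. Their upstream regions are shown because these genes define the cells. The sequences come from the 250 bases before the RefSeq gene start (GRCm38.p6). RefSeq places all 3 starts downstream of the GENCODE starts, so only the bases ahead of both are shown, read 5′ to 3′ in the direction of the gene. Capitals mark matches to TTGCNNAA, the core bound by C/EBP factors, or to its reverse complement TTNNGCAA.
Ngp, chr9:110419558-110419746, plus strand: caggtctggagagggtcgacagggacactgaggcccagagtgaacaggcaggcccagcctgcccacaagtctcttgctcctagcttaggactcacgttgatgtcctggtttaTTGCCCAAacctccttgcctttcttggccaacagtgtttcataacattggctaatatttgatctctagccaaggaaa
Camp, chr9:109849618-109849706, minus strand: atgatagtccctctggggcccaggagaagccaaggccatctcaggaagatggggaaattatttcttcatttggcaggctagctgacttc
Ltf, chr9:111019042-111019270, plus strand: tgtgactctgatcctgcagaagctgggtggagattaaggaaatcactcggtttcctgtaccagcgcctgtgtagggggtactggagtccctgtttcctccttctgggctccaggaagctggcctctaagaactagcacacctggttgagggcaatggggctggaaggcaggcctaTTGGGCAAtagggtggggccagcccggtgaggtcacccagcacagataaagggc
Over the whole 250 bases Ngp held 2 matches, starting 138 and 11 bases before the RefSeq start, of which the nearer one lies inside the GENCODE gene and is not shown. Ltf held 1, starting 75 bases before the RefSeq start, and Camp held 0. These letters occurred in 9.56% of 32851 windows of the same length, and in 4 of the 14 neutrophil genes listed below that had a window. A match describes the letters only.

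The specific granule-rich cells stood apart from the other sorted cells in the measure that chose them. In the naive sorted library Ngp, Camp and Ltf made up 1.23% of UMIs in the lowest of these cells, 10.6% in the median and 14.8% in the highest. The CTX sorted cells had 1.44%, 9.27% and 15.8%. The median of the other sorted cells was 0 in both libraries. Few cells lay between, since 3 naive and 9 CTX cells had from 0.1% to 1%. The nearest cells outside the limit had 0.936% in the naive and 0.375% in the CTX library. The azurophil limit mattered for 5 CTX cells and for 0 naive cells that had at least 1% of both gene sets and were not counted. The highest azurophil share inside the set was 0.213%, far below the limit.

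These cells made up 1.11% (95% Clopper-Pearson interval 0.689 to 1.69) of 1891 kept naive sorted cells and 2.07% (1.55 to 2.70) of 2564 kept CTX sorted cells. The log2 ratio of the shares was 0.90 (0.14 to 1.70). In whole BM the same rule took in 30.2% (29.2 to 31.3) of the naive cells, 24.5% (23.4 to 25.6) at day 2 after CTX and 63.8% (62.7 to 64.8) at day 7, a log2 ratio of 1.08 (1.004 to 1.149) for D7 CTX over naive. The share was thus higher in the CTX sorted than in the naive sorted library, and in whole BM it was lower than naive at day 2 and higher at day 7. With 1 library each, the spread between mice cannot be set against these differences.

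Neutrophil genes that the rule did not use were abundant in the specific granule-rich cells. A list of 18 such genes gave 33231 CPM (UMI counts of the summed cells scaled to a total of 1000000, 32356 to 34125) in the naive and 35456 CPM (34904 to 36014) in the CTX cells, against 543 and 568 CPM in the other sorted cells. All 18 genes were detected in both sets. Whole BM cells of the same rule had 32789 CPM in untreated and 32754 CPM in D7 CTX marrow. The naive sorted cells differed from their whole BM counterparts by a log2 ratio of 0.02 (-0.02 to 0.06) and the CTX sorted cells by 0.11 (0.09 to 0.14).

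Ly6g, which encodes the surface protein that marks neutrophils, had 1350 CPM (1179 to 1540) in the naive and 2106 CPM (1973 to 2245) in the CTX cells. It was detected in 20 of 21 naive cells, with 0, 11 and 22 UMIs in the lowest, median and highest cell, and in 53 of 53 CTX cells, with 3, 17 and 46 UMIs. Of the other sorted cells 1.12% and 1.31% had a Ly6g UMI, at a higher median depth of 10310.5 and 9739 UMIs against 6477 and 7402. Almost every specific granule-rich cell thus carried Ly6g, and almost no other sorted cell did.

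Granule proteins and secreted products followed the same pattern. Lcn2, encoding the iron-siderophore binding protein lipocalin 2, had 13097 CPM in the naive and 12397 CPM in the CTX cells, against 37.0 and 46.0 CPM in the other sorted cells. Wfdc21, a small whey acidic protein gene, had 6953 and 5775 CPM against 9.31 and 39.4 CPM. Retnlg, which encodes a resistin-like protein of neutrophils, had 4921 and 7374 CPM against 42.4 and 41.2 CPM. Olfm4, which marks a subset of neutrophils, was detected in 9 of 21 naive and 14 of 53 CTX cells. S100a8 and S100a9, whose products form the calcium-binding protein calprotectin, together took a median of 40.3% of UMIs per naive cell (range 21.5 to 45.0) and 40.9% per CTX cell (11.1 to 46.4). Chil1, a chitinase-like gene, had 328 and 376 CPM against 0.362 and 0.390 CPM in the other sorted cells.

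Regulators and effectors gave a mixed picture. Cebpe, the factor that drives specific granule formation, had 681 CPM in the naive and 387 CPM in the CTX cells against 38.8 and 46.2 CPM. Cebpa, which acts earlier, had 12.2 and 13.5 CPM against 78.0 and 83.1 CPM, and Zeb2, a zinc finger repressor, had 6.08 and 78.8 CPM against 614 and 524 CPM. The 6 genes of the NADPH oxidase, which makes superoxide in both neutrophils and monocytes, summed to 6594 and 6973 CPM against 4776 and 4620 CPM, and only Ncf1 was at least 1 log2 unit higher in both libraries. MHC class I genes summed to 1472 and 1818 CPM against 4034 and 3795 CPM.

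Monocyte genes were nearly absent from the naive cells and unevenly spread in the CTX cells. A list of 14 monocyte genes, among them Csf1r, Ccr2, the coagulation factor gene F13a1 and the fibronectin gene Fn1, gave 2 UMIs in the 21 naive cells together, 1 of Ccr2 and 1 of Mpeg1, with 12 genes at 0. That is 12.2 CPM (1.47 to 43.9) against 8496 CPM in the other naive sorted cells. The CTX cells had 451 UMIs of the list, or 1016 CPM (924 to 1114), against 8076 CPM in the other CTX sorted cells. Whole BM cells of the same rule had 121 CPM in untreated and 130 CPM in D7 CTX marrow. Whole BM monocytes, taken as cells with Csf1r or Ccr2 and high Ly6c2, had 8406 and 8455 CPM.

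Genes at 0 in the naive cells allow only a lower bound on the difference, set against 3 counts over all 21 cells. Fn1 was at least 83.0-fold lower than the 1514 CPM of the other naive sorted cells. Ms4a6c, a tetraspan membrane protein gene, was at least 69.8-fold lower, F13a1 at least 60.8-fold lower and Ctss, encoding cathepsin S, at least 40.2-fold lower. For Csf1r, a less abundant transcript, the bound was 8.70-fold. Csf1r was detected in 0 of 21 naive cells, which allows a share of cells with a UMI of up to 14.3% at 3 counts (exact upper limit 16.1%), and in 4 of 53 CTX cells (7.55%), against 79.7% and 75.0% of the other sorted cells. Ccr2 was detected in 1 of 21 and 6 of 53 cells, against 98.1% and 97.0%. In whole BM cells with B lineage transcripts, which should lack both, 1.49% and 1.46% had a Csf1r UMI and 2.29% and 3.90% a Ccr2 UMI in naive and D7 CTX marrow, at a median depth of 2894 and 8154 UMIs.

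The monocyte UMIs of the CTX cells sat in very few cells. Of all 74 specific granule-rich cells, 56 had no UMI of the 14 genes (20 of 21 naive and 36 of 53 CTX), 69 had at most 2, and 0 had from 3 to 5. The other 5, all from the CTX library, had 59 to 142 each and held 437 of the 451 UMIs. These 5 cells had 12305 to 22488 UMIs and 2759 to 4297 genes, and S100a8 with S100a9 took 11.8% to 22.3% of their UMIs. In sum they had 5345 CPM of the monocyte list and 16978 CPM of the neutrophil list, so both programmes were present in the same barcodes. Their Scrublet doublet scores, which measure likeness to simulated pairs of cells, were 0.110 to 0.205, while the other CTX cells of the set scored at most 0.0537 and the naive cells at most 0.0346. All 5 were among the 72 CTX barcodes with the highest scores that were taken as doublets, and 0 of 21 naive cells were among the 29 naive ones. Whether each of these 5 barcodes held 1 cell or more was not tested.

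The monocyte UMIs were also compared at equal depth. After each cell was thinned to 2000 UMIs, 0 of 19 naive cells had 3 or more UMIs of the monocyte list, which allows a share of up to 15.8% at 3 counts (exact upper limit 17.6%), and 5 of 50 CTX cells did (10.0%, 3.33 to 21.8). Of the other sorted cells 99.2% and 98.2% did. Without thinning the shares were 0%, 9.43%, 99.1% and 98.8%. Cells with fewer UMIs were left out, 2 and 3 of the specific granule-rich and 57 and 68 of the other sorted cells.

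**Figure D1:**
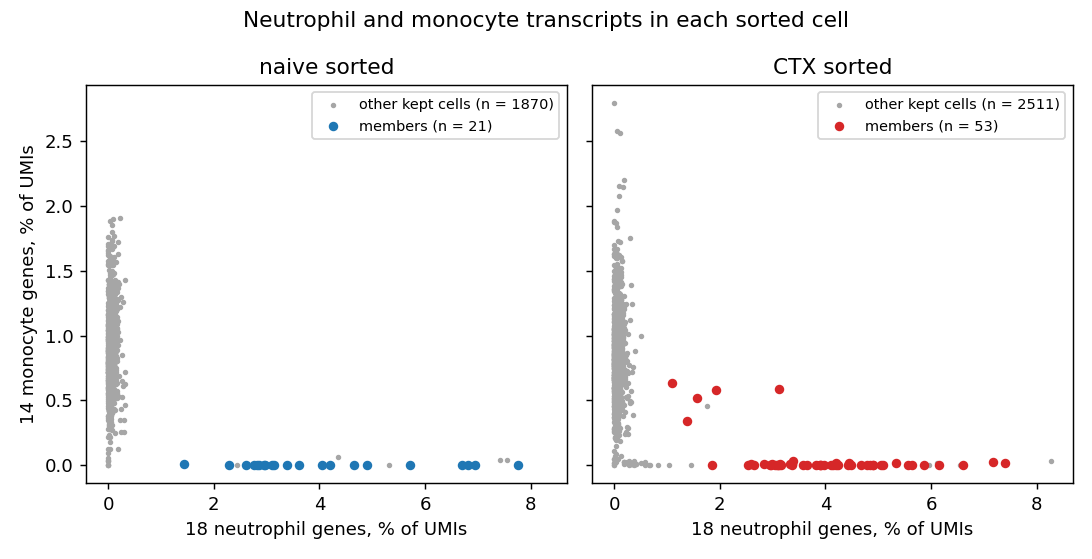
Each dot is 1 kept sorted cell, placed by the percent of its UMIs from the 18 neutrophil genes outside the rule (x axis) and from the 14 monocyte genes (y axis). The specific granule-rich cells (coloured, members) lie along the x axis with at most 2 monocyte UMIs, apart from 5 CTX cells with 59 to 142, and most other cells (grey) lie along the y axis, with a few, such as the 10 with a fitted neutrophil share of at least 90%, near the x axis.

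Each cell was also placed between a neutrophil and a monocyte profile over all remaining genes. The profiles were the summed UMIs of whole BM cells of the same rule and of whole BM monocytes, from naive marrow for the naive cells and D7 CTX marrow for the CTX cells, without the 7 genes of the rule, mitochondrial and ribosomal protein genes. The fitted neutrophil profile share of a cell is the mixing weight that made its counts most likely. It was at least 90% in 20 of 21 naive cells (95.2%, 76.2 to 99.9) and 45 of 53 CTX cells (84.9%, 72.4 to 93.3), with a median of 100% in both. For whole BM cells of the same rule, which built the profile, 93.8% and 93.5% reached 90%. In the other sorted cells the median was near 0, and 5 of 1870 naive and 5 of 2511 CTX cells reached 90%.

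The cells with lower shares were of 2 kinds. The 5 CTX cells with many monocyte UMIs were fitted at 30.7% to 59.2%. The other 4, 1 naive and 3 CTX, were fitted at 61.5% to 88.8%. Of these, 3 had fewer than 1200 UMIs, so their weights rest on few counts, and 1 had 9433. Whether depth lowered the weights was not tested. Without the 8 CTX cells under 90%, the monocyte list was at 37.1 CPM (19.7 to 63.4, from 13 UMIs) and the neutrophil list at 39771 CPM. The fit itself used the genes of both lists, so these levels describe the cells that were kept and are no separate test. By these measurements 65 of 74 cells matched the profile of whole BM cells of the same rule at 90% or more. Because the rule chose that profile's cells, the fit alone cannot tell neutrophils from monocytes with specific granule genes. By direct counts, 73 of 74 cells had Ly6g, 69 had at most 2 UMIs of the monocyte list, and a mixed content was measured in 5 CTX cells.

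**Figure D2:**
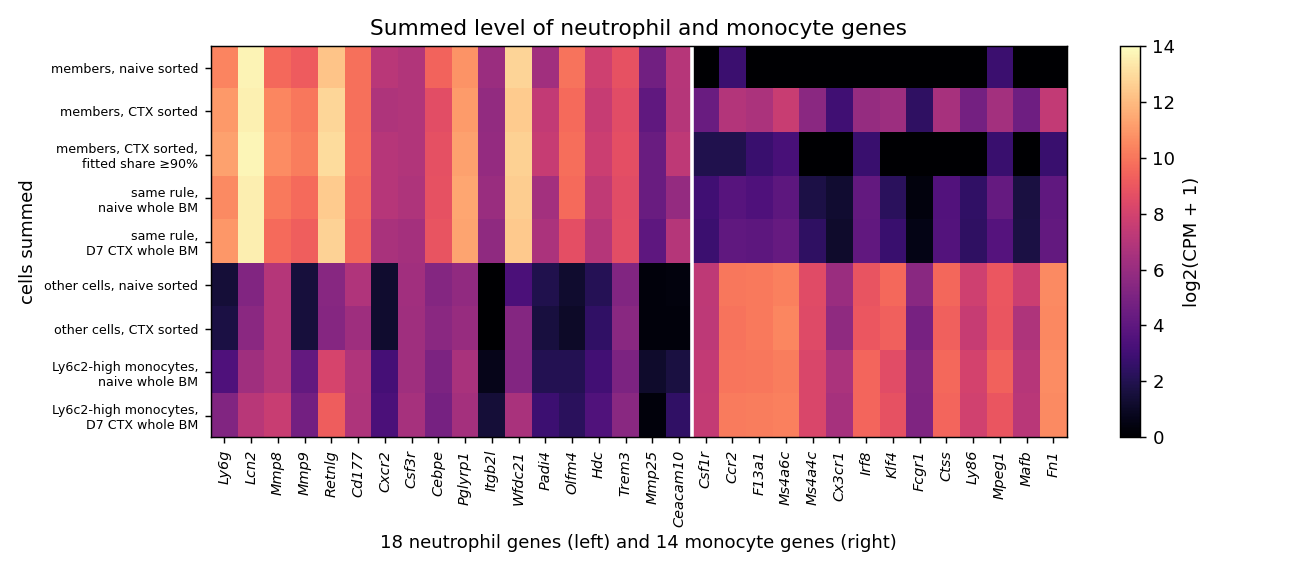
Summed level, as log2(CPM + 1), of the 18 neutrophil genes outside the rule (left of the white line) and the 14 monocyte genes (right) in 9 sets of cells, with the specific granule-rich cells in the top 3 rows (members). They carry the neutrophil genes at about the level of whole BM cells of the same rule, 12 monocyte genes are at 0 (black) in the naive cells, and 13 of the 451 monocyte UMIs of the CTX cells remain in the row that keeps cells with a fitted share of at least 90%.

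RNA content separated the cells as well. The median number of genes per cell was 1471 in the naive and 1478 in the CTX specific granule-rich cells against 2904 and 2847 in the other sorted cells. The median mitochondrial share was 0.782% and 0.841% of UMIs against 4.11% and 4.21%. At equal UMI counts they had fewer genes than the other sorted cells, and the 5 mixed CTX cells lay nearer to the curve of the other sorted cells.

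**Figure D3:**
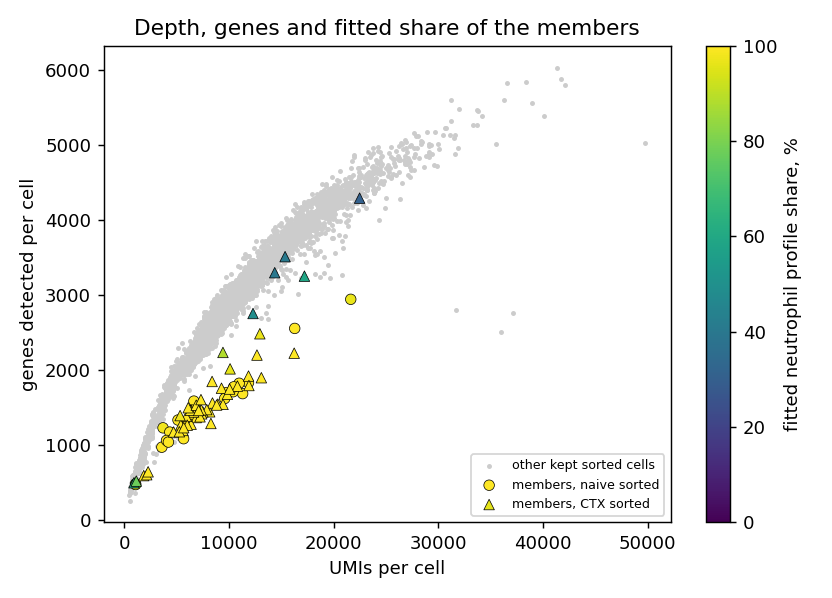
Genes detected (y axis) against UMIs (x axis) for each kept sorted cell, with the specific granule-rich cells (members, circles naive, triangles CTX) coloured by their fitted neutrophil profile share in percent and the other sorted cells in grey. The specific granule-rich cells with shares of 90% or more form a lower branch, and the 5 CTX cells fitted at 30.7% to 59.2% lie above it with 2759 to 4297 genes.

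The transcripts of the sort antigens were present. Itgam, encoding CD11b, had 286 CPM in the naive and 482 CPM in the CTX cells, above the 150 and 127 CPM of the other sorted cells. Ly6c1 and Ly6c2 are near-identical, so reads may be split between them with error and their sum is given. It was 566 CPM (457 to 693) in the naive and 592 CPM (523 to 668) in the CTX cells, against 1670 and 1729 CPM in the other sorted cells. Whole BM cells of the same rule had 478 and 321 CPM, and whole BM monocytes 1788 and 1613 CPM. Ly6C transcripts in the specific granule-rich cells were thus nearer to the level of unsorted cells of the same rule than to that of monocytes. The antibody stain itself was not measured here.

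Markers of other cell types were at or near 0. Of the 5 erythroid genes, led by the globin genes, 0 UMIs were found in the naive and CTX cells, at least 159-fold and 28.7-fold lower than the 2906 and 194 CPM of whole BM cells of the same rule. The other sorted cells also had few, 11 of 22115365 UMIs in the naive and 58 of 28178363 in the CTX library. Whole BM monocytes had 7122 of 3207438 and 84 of 4699810, so the low level was not particular to the specific granule-rich cells. Basophil and mast cell (5 genes), eosinophil (4 genes) and megakaryocyte (3 genes) lists also gave 0 UMIs in the naive and CTX specific granule-rich cells. The dendritic cell list (7 genes) gave 1 UMI of Batf3 in each library, with Siglech, Flt3 and Cd74 at 0, and the macrophage list (4 genes) gave 1 UMI of Vcam1 in the naive and 0 in the CTX cells, with C1qa at 0. The B lineage list (5 genes) gave 1 UMI, of Ighm, in the naive and 13 in the CTX cells, with Ighm at 27.0 CPM and Cd79a at 0. Without the CTX cells fitted under 90%, 3 UMIs of the list remained (8.55 CPM), all of Ighm. The plasma cell list (4 genes) gave 7 and 2 UMIs, led by Igkc.

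One gene of the T and NK cell list gave nearly all of its UMIs. Cd3d, which encodes a chain of the T cell receptor complex, had 231 CPM in the naive and 304 CPM in the CTX cells against 0.678 and 0.816 CPM in the other sorted cells. Cd3e, another chain of the complex, was at 0 in both, and the 5 genes gave 38 and 136 UMIs in all, of which Cd3d gave 38 and 135. Whole BM cells of the same rule had 233 and 251 CPM of Cd3d.

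Levels of granule genes outside the rule varied among the specific granule-rich cells. The 8 early azurophil genes outside the rule summed to 1192 CPM in the naive and 833 CPM in the CTX cells, with 846 and 588 CPM from Serpinb1a, a protease inhibitor. Cells with a fitted share of at least 90% were split at 5% Ngp, Camp and Ltf, a limit chosen after the values were seen, so the contrast is a description. Under 5% lay 6 naive and 9 CTX cells, and at or above it 14 and 36.

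The 10 gelatinase and late neutrophil genes summed to 35010 CPM in the 6 naive cells under 5% and 2030 CPM in the 14 above, and to 35206 and 8125 CPM in the CTX cells, with most from Retnlg under 5%. Single genes are given as examples. Retnlg had 26425 CPM (24463 to 28502) in the naive cells under 5% and 732 CPM (597 to 890) above, and 27276 CPM (25904 to 28703) and 4796 CPM (4550 to 5052) in the CTX cells. Mmp8, encoding neutrophil collagenase, had 2796 and 348 CPM in the naive and 3080 and 1319 CPM in the CTX cells. Mmp9, encoding gelatinase B, had 1812 and 341 CPM in the naive and 2176 and 981 CPM in the CTX cells. Cxcr2, the receptor that mature neutrophils follow into blood, had 473 and 72.5 CPM in the naive and 369 and 84.3 CPM in the CTX cells. S100a6, a calcium-binding protein gene of another list, had 11184 and 645 CPM in the naive and 12449 and 3936 CPM in the CTX cells. All 5 genes were higher under 5% in both libraries.

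The 8 early azurophil genes outside the rule summed to 788 CPM (481 to 1216) in the naive cells under 5% and 1276 CPM (1095 to 1479) above, where the intervals overlap, and to 221 CPM (114 to 387) and 1052 CPM (939 to 1176) in the CTX cells. Chil3 and Fcnb, chosen as examples, were higher above 5% in both libraries. Chil3, a chitinase-like protein gene, had 39.4 CPM in the naive cells under 5% and 3785 CPM above, and 73.8 and 2044 CPM in the CTX cells. Fcnb, a ficolin of immature neutrophils, was at 0 under 5% in both libraries and had 297 and 179 CPM above. Cebpe had 78.8 and 798 CPM in the naive but 295 and 445 CPM in the CTX cells, where the intervals overlap (169 to 479 and 373 to 528). Lcn2 had 10515 and 13566 CPM in the naive and 9240 and 14773 CPM in the CTX cells. Ly6g had 1812 and 1269 CPM in the naive and 2416 and 2398 CPM in the CTX cells. Genes of the stefin A family, inhibitors of cysteine proteases whose near-identical copies can share reads, summed to 4450 CPM in the naive cells under 5% and 14.5 CPM above, and to 3190 and 1572 CPM in the CTX cells.

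**Figure D4:**
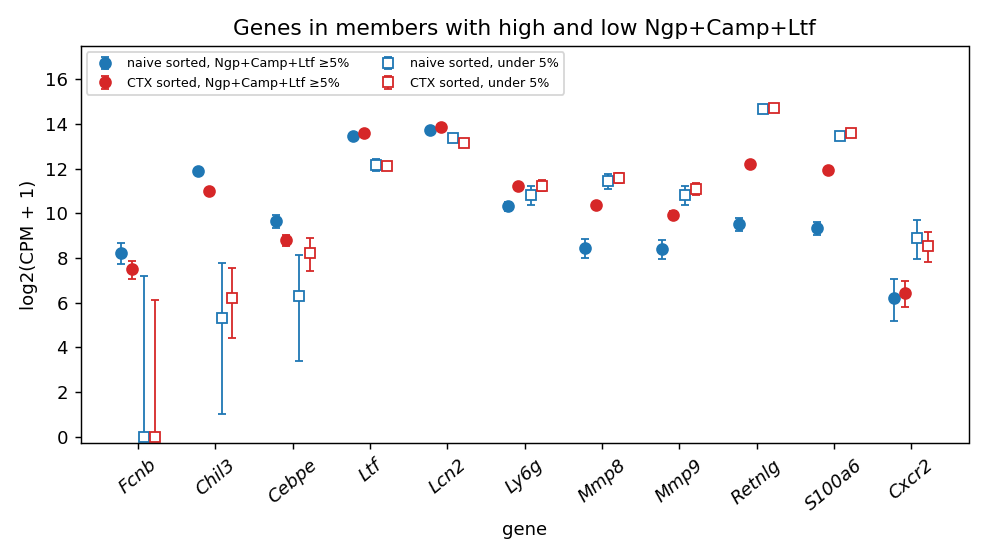
Level of 11 genes, as log2(CPM + 1), in specific granule-rich cells (members) with a fitted share of at least 90%, by library and by whether Ngp, Camp and Ltf made up at least 5% (filled circles) or less (open squares) of UMIs. Bars are exact 95% Poisson intervals of the summed count, and Ltf belongs to the rule. Retnlg, Mmp8, Mmp9, S100a6 and Cxcr2 are higher under 5% in both libraries, Chil3 and Fcnb are higher above it.

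Transcripts of dividing cells were present in part of the set. Mki67, a proliferation marker, was detected in 3 of 21 naive and 9 of 53 CTX cells, with 79.1 and 65.3 CPM against 302 and 366 CPM in the other sorted cells. The 14 G2 and M phase genes summed to 2993 and 2378 CPM, of which the chromatin protein gene Hmgb2 gave 2001 and 1664 CPM, against 4730 and 5312 CPM. The 12 S phase genes summed to 304 and 315 CPM against 885 and 1057 CPM. The 12 targets of p53, the factor that responds to DNA damage, summed to 134 and 169 CPM against 482 and 396 CPM, and the 12 interferon-stimulated genes to 134 and 369 CPM against 2247 and 1558 CPM. Without the 8 cells under 90%, the CTX cells had 1811 CPM of the G2 and M phase, 205 CPM of the S phase and 205 CPM of the interferon-stimulated genes. The log2 ratio of the CTX over the naive S phase sum was 0.05 (-0.42 to 0.55) with all cells and -0.58 (-1.12 to -0.03) without those under 90% in either library.

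Between the libraries, most genes that could be compared in the specific granule-rich cells lay less than 1 log2 unit apart. Of 242 genes with at least 200 UMIs over both and 20 CPM in either, 9 (3.72%) were at least 1 log2 unit higher and 1 (0.413%) was at least 1 log2 unit lower in the CTX cells. The median over all 242 genes was 0.22. With the libraries scaled to the median gene ratio instead of the total, 4 were higher and 3 lower. Of the neutrophil list 0 of the 11 genes past the filter were called (median 0.01), and of the NADPH oxidase 0 of 6. No test between conditions is possible with 1 library each.

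Part of this contrast rested on the cells with low fitted shares. Tmsb10, a thymosin that binds actin, had 793 CPM in the CTX and 103 CPM in the naive cells, a log2 ratio of 2.93 (2.24 to 3.73), and -0.66 without the cells fitted under 90%. Psap, the precursor of lysosomal saposins, had a ratio of 1.72 and 0.28 without them. For Fos, an immediate early factor, it was 1.35 and 0.04, for the mitochondrial gene mt-Nd2 1.20 and 0.69, and for the cystatin gene Cst3 1.05 and 0.37. Those 5 of the 9 higher genes were not called without these cells, and Tmsb10 changed sign. All 5 had at least 1870 CPM in the other CTX sorted cells.

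Of the remaining 4, S100a6, BC100530 and Anxa2 were called without them too, and Ifitm2 no longer passed the filter of 200 UMIs there. S100a6 had 2324 CPM in the naive and 4966 CPM in the CTX cells (log2 ratio 1.10, 0.94 to 1.26, and 1.20 without the cells under 90%). BC100530, a stefin A gene, had 255 and 709 CPM (1.47, 1.01 to 1.97, and 1.64). Anxa2, a membrane-binding annexin, had 1.08 and 1.12, and Ifitm2, an interferon-inducible membrane protein gene, 1.01 and 1.05. With scaling to the median gene ratio S100a6, Anxa2 and Ifitm2 were at 0.88, 0.86 and 0.79, and as a mean of the cells' CPM at 0.56, 0.85 and 0.49, in the same direction but under 1 log2 unit. In whole BM cells of the same rule the D7 CTX over naive ratios were 0.32 for S100a6, 2.82 for BC100530, 0.23 for Anxa2 and 0.21 for Ifitm2. Of the 9 higher genes, 4 had the same sign in whole BM and 1 was at least 1 log2 unit higher there.

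The gene that was lower, Hist1h2ap, one of many near-identical histone H2A genes whose reads may be split with error, had 2488 CPM in the naive and 525 CPM in the CTX cells, a log2 ratio of -2.24, and -3.36 without the cells under 90%. In whole BM the ratio was 0.25. The other sorted cells were also lower in the CTX library, with 3319 CPM in the naive and 1997 CPM in the CTX library. The next lowest, none past 1 log2 unit, were Chil3 at -0.94, Cebpe at -0.81, the transcription factor gene Klf2 at -0.78 and the cyclophilin gene Ppia at -0.77. Without the cells under 90% they were at -0.88, -0.70, -1.01 and -1.48, so Klf2 and Ppia were then called, and 4 genes in all were lower. In the other sorted cells Klf2 was lower in the CTX library too, with 1545 CPM in the naive and 1015 CPM in the CTX library. Chil3, Cebpe and Ppia were higher in the other CTX than in the other naive sorted cells. Mmp8 (0.86), Mmp9 (0.88) and Retnlg (0.58), of the gelatinase and late neutrophil list, were higher in the CTX cells by less than 1 log2 unit. Mmp9 was at 1.03, past 1 log2 unit, without the cells under 90%. The 10 gelatinase and late neutrophil genes had a summed log2 ratio of 0.59 (0.50 to 0.68) in the sorted cells. It was 0.78 (0.69 to 0.88) without the cells under 90% and 0.05 (0.04 to 0.06) in whole BM. Of the 10 genes, 4 are also in the neutrophil list. The 8 stefin A genes summed to 700 CPM in the naive and 1516 CPM in the CTX cells (log2 ratio 1.12, 0.83 to 1.41), and to 656 and 4627 CPM in whole BM (2.82). A shift in stage among the cells and a change within a stage cannot be told apart in these sums.

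Against the other sorted cells, the specific granule-rich cells had 224 genes (3.8%) at least 1 log2 unit higher and 2437 (41.3%) at least 1 log2 unit lower in both libraries, of 5894 tested. The cells were chosen on this contrast, so nothing is read from the counts. The median gene was at -1.20 in the naive and -1.04 in the CTX library, and with scaling to the median gene ratio 708 were higher and 766 lower. Outside the rule genes the highest ratios, as the smaller of both libraries, were Ly6g (8.93), Olfm4 (8.57), Lcn2 (8.04), AA467197 (7.96), Chil1 (7.92), Lrg1 (7.79), Mmp9 (7.63), Wfdc21 (7.16), Cd3d (7.11) and Retnlg (6.83). The lowest were all at 0 UMIs in both sets, namely Bmyc, Gaa, Pepd, Ifi207, Cd74, Cyp27a1, Spink2, Timm8a1, Calhm2 and Ncapg, with 34.3 to 116 CPM in the other naive sorted cells. Cd74 is the invariant chain of MHC class II, and Gaa a lysosomal glucosidase. All 14 monocyte genes were lower in both libraries, with a median log2 ratio of -4.76 in the naive and -2.90 in the CTX cells when genes at 0 are set to the bound.

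Few genes set the specific granule-rich cells apart from whole BM cells of the same rule in both libraries. Of 4475 genes tested, 45 (1.01%) were at least 1 log2 unit higher and 82 (1.83%) lower in both libraries. Without the cells under 90%, 35 of 4257 were higher and 163 lower. With all cells the median gene was at -0.20 in the naive and 0.14 in the CTX library. Past the filter, 3 of 6 early azurophil, 3 of 11 S phase and 2 of 6 stefin A genes were lower in both. Of the neutrophil list 0 of 18 and of the monocyte list 0 of 11 genes past the filter were called either way. A call needed the same direction in both libraries, which the monocyte list did not have, since its sum was lower than in whole BM in the naive cells (log2 ratio -3.31 from 2 UMIs) and higher in the CTX cells (2.96 from 451 UMIs), where 437 of these came from 5 cells. Of the immediate early genes, which respond quickly to outside stimuli, 4 of 13 past the filter were at least 1 log2 unit higher in both. All 14 of the list summed to 4459 CPM in the naive and 4764 CPM in the CTX cells against 1835 and 1642 CPM, log2 ratios of 1.28 (1.17 to 1.39) and 1.54 (1.47 to 1.60). Without the cells under 90% the ratios were 1.23 and 0.98. The other sorted cells showed 2.26 and 1.17 against whole BM monocytes. The sort and the library cannot be told apart.

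Among single genes Hist1h2ap was highest over whole BM (3.52), with 2488 and 525 CPM against 37.6 and 44.9 CPM. It was high in the other sorted cells too, at 3319 and 1997 CPM against 52.1 and 42.8 CPM in whole BM monocytes. Also among the 10 highest were Jun at 2.36, the chemokine genes Ccl3 at 2.30 and Cxcl2 at 2.11, Jund at 2.13 and Ly6c1 at 2.04. In the other sorted cells Jun, Ccl3, Jund and Ly6c1 likewise exceeded whole BM monocytes in both libraries, and Cxcl2 in the naive library only. Ly6c1 shares reads with Ly6c2, and their sum was nearer to whole BM, at 566 against 478 CPM in the naive and 592 against 321 CPM in the CTX cells. In the CTX cells the Jun level was 511 CPM against 90.7 CPM in D7 CTX whole BM, and 154 CPM without the cells under 90%, a log2 ratio of 0.76 that was not called. Lowest were the globin genes Hbb-bs, Hba-a1, Hba-a2 and Hbb-bt, all at 0 UMIs, and Ncapg, a condensin gene, was also at 0. At 3 counts the bound was only -0.31 log2 units for Ncapg in the naive and -0.72 for Hbb-bt in the CTX cells. The globin genes were near 0 in the other sorted cells too. There Hbb-bs had 0.181 and 1.06 CPM, against 1193 and 11.9 CPM in whole BM monocytes. Cd74, Car2 and H2-Aa ranked among the lowest at 0 UMIs too, but with 7.20, 6.93 and 4.38 CPM in D7 CTX whole BM, close to or under the floor of 6.76 CPM in the CTX cells, so nothing is read from their ratios there. Lig1, a DNA ligase gene, had 6.08 and 6.76 CPM against 68.2 and 53.9 CPM, and 7 of the 14 G2 and M phase genes were lower. Of the 45 higher genes 18 were also at least 1 log2 unit higher in the other sorted cells over whole BM monocytes, where 27 of all 4475 (0.603%) were. Of the 82 lower genes 9 were also lower there, against 41 of all (0.916%).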

How the data were processed

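Single-cell RNA-seq libraries were made with 10x Chromium 3′ V3 reagents. The authors deposited counts of UMIs per gene and barcode, made with Cell Ranger 3.1 on mm10 per the submitters' processing notes, with no normalization. Groups were taken from the labels. The members and all gene lists were chosen with earlier results of these data known.

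Cells with at least 200 genes and under 20% mitochondrial UMIs were kept. UMIs were summed per set of cells and given as CPM (UMI counts scaled to a total of 1000000) with exact Poisson intervals, and ratios of 2 sums with exact conditional binomial intervals. Intervals and floors (3 counts) cover counting error only. Genes needed at least 200 UMIs over both sets and 20 CPM in either, and a gene was called when log2(CPM + 1) differed by at least 1. This scale shrinks differences of low genes, but a gene at 0 in the smaller set can show a ratio beyond the bound that 3 counts allow, and such genes are among the lower calls. Where 2 libraries were compared, the call had to hold in both. Named genes were those of the lists and the 10 highest and lowest ratios per comparison, without rule genes, immunoglobulin, Y chromosome genes and Xist. One gene among these is not reported here.

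Whole BM reference cells of the same rule had at most 1 UMI of Cd79a and Cd79b. Whole BM monocytes had at least 2 UMIs of Csf1r and Ccr2, at least 5 of Ly6c2, at most 1 of Cd79a and Cd79b, and under 1% of both rule gene sets, so Csf1r, Ccr2 and Ly6c2 chose them. B lineage cells had at least 4 UMIs of Cd79a and Cd79b and under 1% Ngp, Camp and Ltf. Fitted shares were maximum likelihood weights of a mixture of 2 profiles. Doublets were kept in the main values. Scrublet, run in scanpy 1.11.5, scored them, and the highest-scoring 0.8% of cells per 1000 cells were removed in an alternative. Cells tied with the score at that limit were removed too, which made 29 naive (1.53%) and 72 CTX cells (2.81%) in all. The fit and the calls were checked on simulated data, and the outcome of these checks is not given here. Promoter sequences are from RefSeq (GRCm38.p6), where all 3 rule genes and 14 of the 18 neutrophil genes matched. Python 3.11.15, numpy 2.4.6 and scipy 1.17.1 were used.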

Additional observations from a re-analysis of the deposited data

Results flagged for a closer look

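For 5 genes the CTX over naive log2 ratio in the sorted specific granule-rich cells had the opposite sign to the D7 CTX over naive ratio in whole BM cells of the same rule, with both at least 0.5 in size and neither interval reaching 0. Each side rests on 1 library per group, so the difference was not tested. Mpeg1, encoding a pore-forming protein of phagocytes, was at 3.53 in the sorted cells and -0.56 in whole BM. It had 1 UMI in the naive and 36 in the CTX cells, and the CTX level was 81.1 CPM, or 5.70 CPM without the cells fitted under 90%. Ifi27l2a, an interferon-inducible gene, was at 2.79 and -0.58, and at 1.40 without those cells. Fos was at 1.35 and -1.05, and at 0.04 without them. Fosb was at 1.53 and -1.30, and at -1.42 without them, so its sign then matched whole BM. For these 4 genes the ratio moved with the cells of low fitted share, whose 5 mixed cells had 404 CPM of Mpeg1, 820 CPM of Ifi27l2a, 2862 CPM of Fos and 355 CPM of Fosb. Gm5483, a stefin A gene, was at -0.97 in the sorted cells and 1.92 in whole BM, and at -0.64 without the cells under 90%. Its near-identical relatives can share its reads.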

How the results depend on the processing

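All 8 alternatives for the share of specific granule-rich cells (limits of 0.5% and 2%, azurophil limits of 0.5% and 2% or none, a filter of 500 genes and 10% mitochondrial UMIs, removal of scored doublets, thinning to 2000 UMIs) stayed inside the intervals of the values reported. The neutrophil list gave 32060 CPM in the naive and 34655 CPM in the CTX cells with a limit of 2%, 40817 and 39169 CPM as a mean of the cells' CPM, and 78424 and 74467 CPM with the 20 most abundant genes left out of the total. In the CTX cells it gave 39626 CPM without scored doublets and 39771 CPM without cells fitted under 90%, an alternative chosen after seeing the data. The monocyte list of the CTX cells gave 908, 538 and 2254 CPM under the same first 3 settings, 38.6 CPM without scored doublets and 37.1 CPM without cells fitted under 90%. The last 2 values differ because the 5 cells with 59 to 142 monocyte UMIs are absent. The share of cells fitted at 90% or more was 93.8% in the CTX cells without scored doublets and 100% in the naive cells with the 20 most abundant genes left out. Of the genes set between CTX and naive cells, 3365 were higher and 1303 lower with no filter on low genes, 4 and 3 with scaling to the median gene ratio, 5 and 4 without scored doublets, 5 and 4 without cells fitted under 90%, and 2 were lower with the mean of the cells' CPM. Against the other sorted cells 467 were higher and 4672 lower with no filter, and 708 and 766 with median scaling. Against whole BM 25 were higher and 35 lower with a pseudocount of 10 CPM and 136 and 903 with no filter, and 141 were lower without scored doublets and 163 without cells fitted under 90%. Fos between CTX and naive cells reversed to -0.60 as a mean of the cells' CPM, where each cell has equal weight. Of 348 values of single genes under alternatives, 320 stayed on the same side of 1 log2 unit and 27 crossed it. This tally leaves out genes that no longer passed the filter of 200 UMIs under a setting. These were Tmsb10 (-0.66 without cells fitted under 90%), Psap, Fos, mt-Nd2 and Cst3 without scored doublets or without cells fitted under 90%, and Ifitm2 and Cd3d without the latter. Depth limits the naive values, since 21 cells gave 164393 UMIs, so a gene at 0 could be at up to 18.2 CPM at the floor of 3 counts. No paired analysis was possible because each group had 1 library and the labels give no replicate numbers.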

Other observations

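Some sorted cells outside the set had a neutrophil profile with little of the specific granule genes. Of the other sorted cells, 5 naive and 5 CTX cells were fitted at 90% or more. Their Ngp, Camp and Ltf share was 0 in 3 cells and at most 0.936% in the rest, so the limit of 1% left them out. All 10 had Retnlg, with 42 to 294 UMIs of 2710 to 5118 in all, 9 had Ly6g, and none had more than 2 UMIs of the 14 monocyte genes. S100a8 and S100a9 took 29.4% to 40.8% of their UMIs. For comparison, Retnlg was at 26425 CPM in the naive and 27276 CPM in the CTX cells of the set with less than 5% Ngp, Camp and Ltf. These cells were picked by the fit, so the values are a description.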
